A study of Homo sapiens with 24 samples.

Results

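Genes widely used as markers of mature absorptive colon cells were followed across 4 treatments of HCT-116 cells, 10 of the 27270 gene or transcript names on the array. The members were ALPI, ALPP, VIL1, EZR, FABP1, LGALS4, DPP4, ANPEP, CA2 and SLC26A3, chosen by name, and each was read by 1 probe (1 spot for 9 of them, 10 spots for SLC26A3). HCT-116 is an established human colorectal carcinoma line. All 4 groups came from 1 clone of it that stably carried a Tet repressor and a Tet-inducible dominant-negative Tcf4 (DN-Tcf4), a form of the transcription factor that blocks Wnt target genes. Ctl cells received neither agent (untreated in the sample titles, mock-treated in the agent label), NaB cells received 5 mM sodium butyrate, Doxy cells received 4 µg/ml doxycycline, and DoxyNaB cells received both at the same doses. By the study's methods doxycycline was given or withheld first, and cotreatment with or without butyrate then lasted 17.5 hr. Below, doxycycline added to butyrate names the comparison of DoxyNaB with NaB, not the order of the agents. Each treatment was run in 6 numbered experiments, which gave 24 1-colour arrays. Since every group was this 1 clone, and no array held cells without the transgene treated with doxycycline, the drug and the transgene cannot be told apart. In such bulk RNA, fewer cells of a type and less RNA per cell cannot be told apart either.

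Colonocytes mature as they move up the crypt: Wnt signalling through Tcf4 keeps cells at the base dividing, and mature cells build an actin-rich brush border loaded with digestive enzymes and ion transporters. Butyrate, a histone deacetylase inhibitor made by gut bacteria, is known for raising alkaline phosphatase and brush border proteins in many colon cancer lines. The 10 markers cover this programme: villin (VIL1) and ezrin (EZR) build and anchor microvilli, alkaline phosphatases (ALPI, ALPP), dipeptidyl peptidase 4 (DPP4) and aminopeptidase N (ANPEP) are surface enzymes, CA2 and SLC26A3 serve bicarbonate and chloride exchange, FABP1 binds fatty acids, and LGALS4 is a galectin of the apical membrane.

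A level is given as log2 of the processed signal over the 75th percentile of that array, so that 0 is the 75th percentile and differences between treatments of 1 experiment are log2 changes. Only 4 of the 10 markers had a signal well above background that could be tested: EZR, CA2, ALPP and DPP4, each on 24 of 24 arrays. The other 6 did not pass: LGALS4 was well above background on 12 arrays, ALPI and FABP1 on 9 each, VIL1 on 5, ANPEP on 2 and SLC26A3 on 0 arrays. Those 6 are described by their values without a test, since each is near the limit of detection in some or all treatments. On some arrays Feature Extraction had replaced their signal by a surrogate, a stand-in for a spot not above background: 3 Ctl and 2 Doxy arrays and no butyrate array for VIL1, and from 1 array (LGALS4) to 14 (SLC26A3) for the others. For SLC26A3, with its several spots, an array counted under either mark at a share of 0.5 or more of the used spots. Its remaining arrays held some surrogate spots too, except the NaB array of experiment 2.

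The inducible construct was visible in the arrays. With doxycycline added to butyrate, the first 2 of 3 probes for TCF7L2, the gene of Tcf4, rose by 4.46 and 2.96 (log2; limma with Benjamini-Hochberg adjustment, adjusted p = 1.73e-06 and 3.65e-05), and the tested AXIN2 probe (a Wnt target gene) fell by 2.53 on the log2 scale (adjusted p = 2.64e-11, lower in 6 of 6 experiments). The third TCF7L2 probe fell by 1.25 (adjusted p = 0.00566). With doxycycline alone the same 2 TCF7L2 probes changed by 0.30 and -0.17 (adjusted p = 0.861 and 0.922), and AXIN2 fell by 0.58 (adjusted p = 0.0029). The study likewise reported little DN-Tcf4 protein with doxycycline alone and high levels with both agents. DoxyNaB and Doxy therefore differ in butyrate and in DN-Tcf4. Changes given below for butyrate under doxycycline hold both, and their parts cannot be told apart. Before scaling, the 75th percentile signal ran from 380.2 to 1323 between arrays, and 52.7% to 88.1% of spots were well above background. The probes that match no transcript were brighter on several butyrate arrays of experiments 2 to 4: their average net signal was 114.6, 161 and 112.1 on the NaB arrays of experiments 2, 3 and 4 against 63.1 to 76.9 on the Ctl arrays of the same experiments, and 248.9 on the DoxyNaB array of experiment 2. In experiments 5 and 6 the same controls read 48.4 to 53.8 under all treatments.

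**Figure D1:**
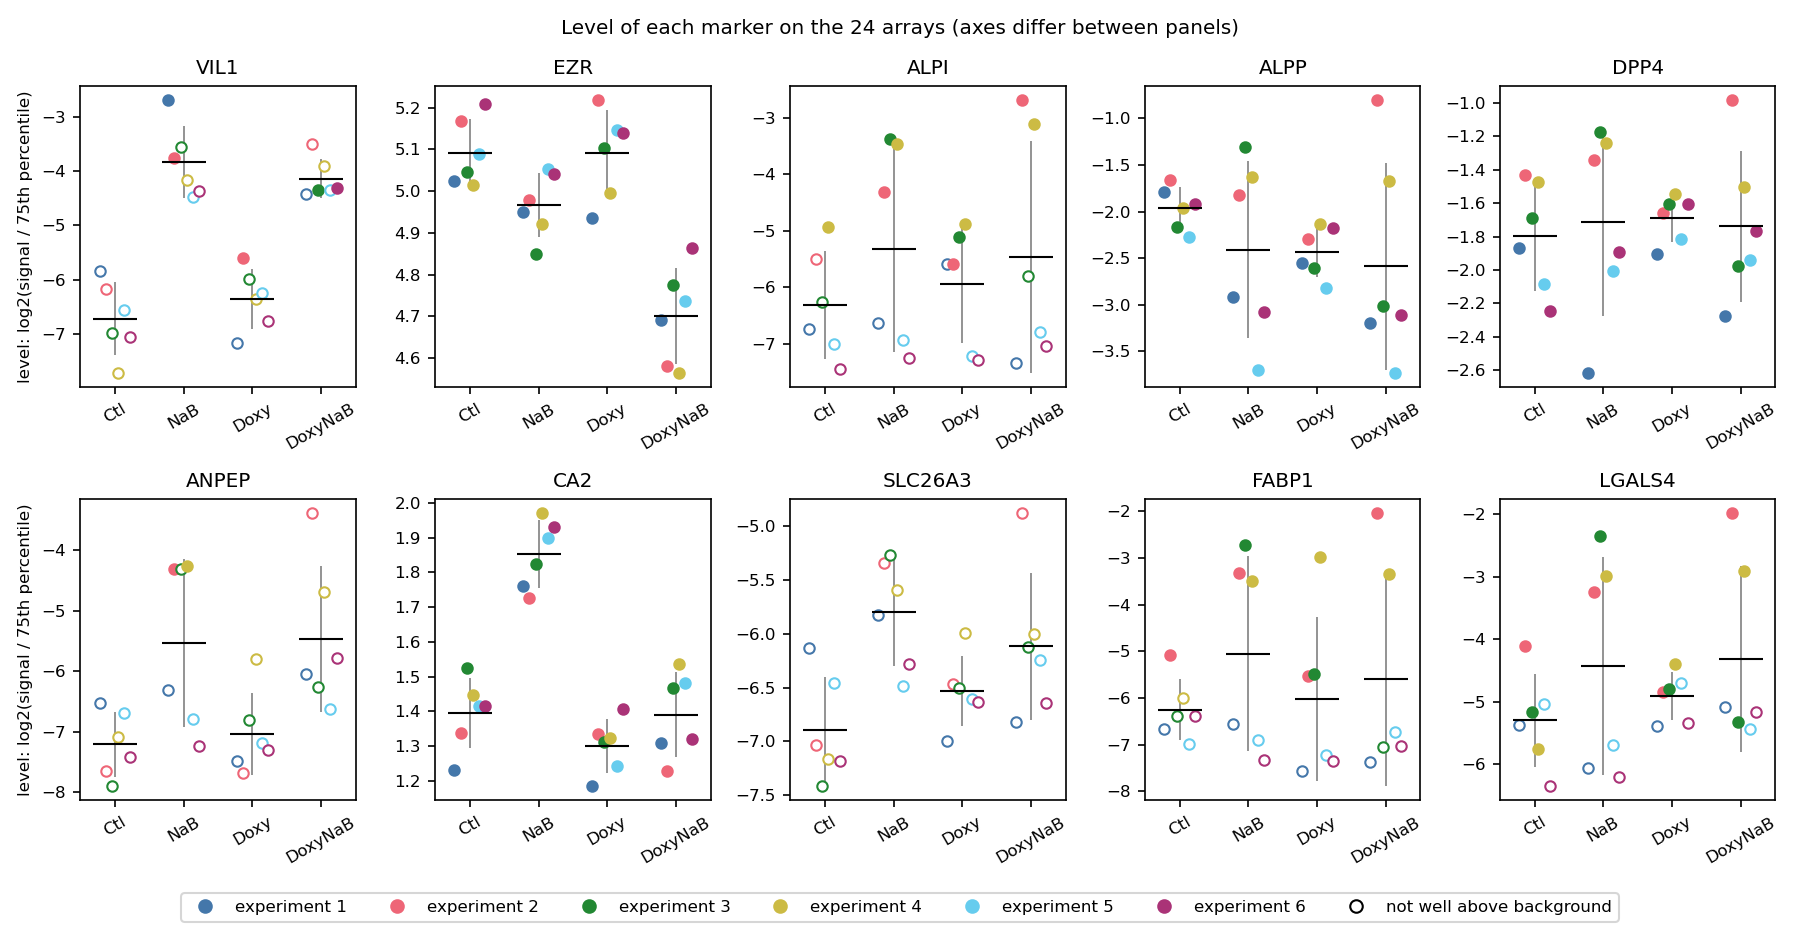
Level of each marker (log2 of signal over the array's 75th percentile, with a separate axis per panel) in the 4 treatments; points are the 6 experiments, open where the spot was not well above background, with the mean as a bar and the SD as a vertical line. EZR, CA2, ALPP and DPP4 are filled throughout; CA2 is highest in NaB alone (1.73 to 1.97), and VIL1 is higher in both butyrate groups although mostly open.

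CA2 rose with butyrate alone, and with doxycycline present its change with butyrate did not pass the test. CA2, cytosolic carbonic anhydrase 2, supplies the bicarbonate that colonocytes exchange for chloride. Its probe lies on chr8:86580462-86580521 (NCBI36, plus strand). In Ctl the levels of CA2 ran from 1.23 (lowest) through a median of 1.42 to 1.52 (highest). In NaB they ran from 1.73 through 1.86 to 1.97. In Doxy they ran from 1.18 through 1.32 to 1.41, and in DoxyNaB from 1.23 through 1.39 to 1.54. All 6 NaB arrays were thus above every array of the other 3 treatments, while Ctl, Doxy and DoxyNaB overlapped.

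Butyrate alone raised CA2 by 0.46 ± 0.09 (log2, SD, n = 6 experiments), or 1.37-fold, in 6 of 6 experiments (limma, adjusted p = 4.91e-07). From Doxy to DoxyNaB, where butyrate and DN-Tcf4 both differ, CA2 changed by 0.09 ± 0.15, higher in 4 of 6 experiments. That change did not pass (limma, adjusted p = 0.145, 95% interval -0.02 to 0.20) but was called after quantile normalization (0.18, adjusted p = 0.00408). Doxycycline added to butyrate lowered CA2 by 0.46 on the log2 scale (1.38-fold lower, SD 0.09, lower in 6 of 6; adjusted p = 2.51e-05), whereas doxycycline alone gave -0.09 ± 0.09 (adjusted p = 0.516). In order of mean, the CA2 levels were 1.30 in Doxy, 1.39 in DoxyNaB, 1.40 in Ctl and 1.85 in NaB, and of the neighbours only Ctl and NaB were separated by more than their spread. The test of the difference between both butyrate effects gave 0.37 ± 0.17 (positive in 6 of 6 experiments; 95% interval 0.21 to 0.53), which missed the threshold of 0.01 (adjusted p = 0.0127). It passed after quantile normalization (0.43, adjusted p = 0.00193) and not after normexp (0.54, adjusted p = 0.219), scaling on the median (0.18, adjusted p = 0.983), without the filter (0.0743), without the block (0.133) or by the methods' t-test (0.134).

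The other CA2 values depended on the scaling too. Scaled on each array's median, the median of all tested probes moved to -0.58 in NaB/Ctl from 0.17 on the main scale, and CA2 then read -0.29 (adjusted p = 0.208); relative to the median probe CA2 was higher by 0.29 on both scales. The fall from NaB to DoxyNaB kept its direction at -0.36 to -0.56 under the other scalings, but it did not pass after normexp background correction (adjusted p = 0.0102), after scaling on the median (1.00), with the NaB and DoxyNaB arrays fitted alone (0.0189) or by the methods' t-test, the paired test that the study's methods name (0.0173), nor within experiments 2 to 4 (0.153) or experiments 5 and 6 (0.172).

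**Figure D2:**
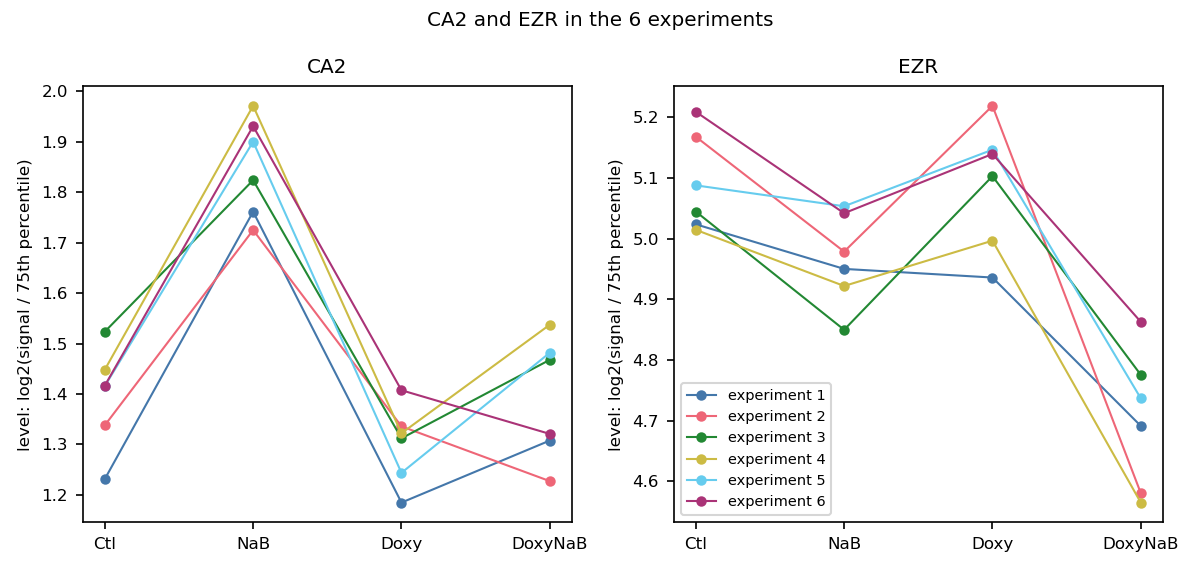
CA2 and EZR levels (log2 of signal over the array's 75th percentile) in the 4 treatments, with a line for each of the 6 experiments. Every CA2 line peaks at NaB, and every EZR line falls from Doxy to DoxyNaB.

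EZR, which links the plasma membrane to actin in microvilli, fell when butyrate was added to doxycycline-treated cells. Its probe lies on chr6:159107658-159107717 (NCBI36, minus strand). The EZR levels ran from 5.01 through 5.07 to 5.21 in Ctl and from 4.94 through 5.12 to 5.22 in Doxy. They ran from 4.85 through 4.96 to 5.05 in NaB and from 4.56 through 4.71 to 4.86 in DoxyNaB. All 6 DoxyNaB arrays were below all Ctl and all Doxy arrays, and NaB lay between them, overlapping both Ctl and DoxyNaB.

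From Doxy to DoxyNaB, where butyrate and DN-Tcf4 both differ, EZR fell by 0.39 on the log2 scale (1.31-fold lower, SD 0.14, lower in 6 of 6, limma adjusted p = 4.34e-06). Butyrate alone gave -0.13 ± 0.07, also lower in 6 of 6 experiments, and did not pass the threshold (adjusted p = 0.0464). Doxycycline added to butyrate gave -0.26 ± 0.12, lower in 6 of 6 (adjusted p = 0.00691), and doxycycline alone gave -0.0012 ± 0.067 (adjusted p = 0.996; 95% interval -0.12 to 0.11). In order of mean the EZR levels were 4.70 in DoxyNaB, 4.97 in NaB, 5.09 in Doxy and 5.09 in Ctl. The difference between both butyrate effects was 0.26 ± 0.14 and was positive in 6 of 6 experiments, but did not pass (adjusted p = 0.101).

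The call for EZR from NaB to DoxyNaB was not stable: leaving out any 1 of the 6 experiments gave adjusted p-values of 0.0113 to 0.0713, with the change at -0.24 to -0.30. It was also lost after normexp (-0.41, adjusted p = 0.156), quantile normalization (adjusted p = 0.0104) and scaling on the median (-0.16, adjusted p = 1.00), without the filter on dim probes (0.0395), without the block on experiment (0.0569), with the NaB and DoxyNaB arrays fitted alone (0.167), by the methods' t-test (0.101), and within experiments 2 to 4 (0.466) or experiments 5 and 6 (0.351). The EZR change from Doxy to DoxyNaB did not pass in experiments 5 and 6 alone (-0.34, limma adjusted p = 0.0231).

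The promoter of EZR is shown because EZR was the called marker with an entry in the RefSeq promoter table used here (GRCh38.p14), which held 8 of the 10 markers and no entry for VIL1 or CA2. The 250 bases before the EZR start are chr6:158818236-158818485 on the minus strand. Capitals mark GGGCGG or its reverse complement CCGCCC, the GC box letters.
EZR: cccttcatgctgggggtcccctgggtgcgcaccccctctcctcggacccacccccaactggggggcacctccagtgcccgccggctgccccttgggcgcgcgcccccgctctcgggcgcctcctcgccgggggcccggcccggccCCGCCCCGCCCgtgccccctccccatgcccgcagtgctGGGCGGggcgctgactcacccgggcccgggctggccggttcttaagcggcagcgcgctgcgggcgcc
The GC box letters occurred 3 times, beginning 105, 100 and 67 bases before the start, with the first 2 sharing a base, and 42.6% of the 35116 promoters of this length in the table hold them at least once. Words for Tcf sites were searched on both strands: CTTTGAA or CTTTGAT, and likewise CTTTGTA or CTTTGTT. None was in this window of EZR, and 12% of all promoters hold at least 1 of them. Among the 8 markers with an entry the Tcf words were found in SLC26A3 alone, where CTTTGAT began 145 bases before the start.

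Of the 4 tested markers, 1 was called higher and 0 lower with butyrate alone, beside 40% of all 18984 tested probes called higher and 28.2% called lower. Under doxycycline, butyrate gave 0 called higher and 1 lower, beside 37.3% and 29.7% of all probes. Doxycycline alone gave 0 calls among the 4, beside 0.411% of probes higher and 0.0895% lower; by limma 0 of the 4 reached an unadjusted p under 0.05, and the methods' t-test gave 1 at an unadjusted p under 0.01 (ALPP) and 0 after adjustment. Doxycycline added to butyrate gave 0 higher and 2 lower, beside 0.616% and 1.86% of all probes. The difference between both butyrate effects was called for 0 of the 4, beside 1.03% of probes called positive and 0.216% negative; 2 of the 4 reached an unadjusted p under 0.05 by limma, and the methods' t-test gave 2 at an unadjusted p under 0.01 and 0 after adjustment. None of the 4 changed by 2-fold or more in the fit for any of these comparisons. NaB/Ctl and Doxy/Ctl share the Ctl arrays, and DoxyNaB/NaB shares arrays with each butyrate comparison.

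The median change of all probes was 0.17 for butyrate alone and 0.10 under doxycycline, and 58.7% of the calls for butyrate alone were higher on this scale. That share was 46.9% after quantile normalization and 21.7% after scaling on the median, so the sign of a small change with butyrate depends on the reference chosen.

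**Figure D3:**
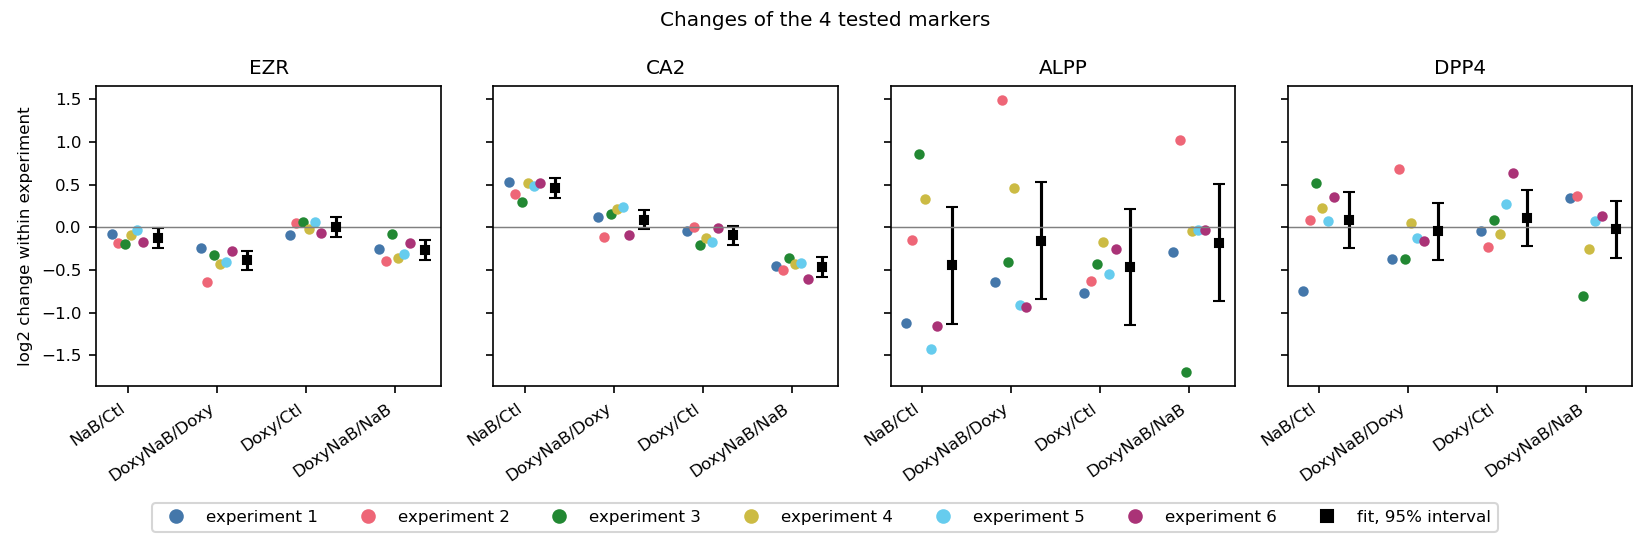
Log2 change within each experiment for the 4 tested markers in 4 comparisons; coloured points are the 6 experiments and the black squares are the fitted changes with their 95% intervals. CA2 and EZR cluster tightly, while the ALPP points spread from -1.43 to 0.86 for NaB/Ctl.

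ALPP, the placental alkaline phosphatase, belongs to a cluster of near-identical genes on chromosome 2 with ALPI and ALPG, and signal shared between their probes was not tested. Its probe lies on chr2:232955442-232955501 (NCBI36, plus strand). ALPP levels ran from -2.28 through -1.94 to -1.67 in Ctl and from -3.70 through -2.37 to -1.31 in NaB. They ran from -2.82 through -2.43 to -2.13 in Doxy and from -3.73 through -3.06 to -0.80 in DoxyNaB. The treatments overlapped in every comparison, and the SD was larger in both butyrate groups (0.95 in NaB and 1.11 in DoxyNaB) than in Ctl (0.23) and Doxy (0.27).

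No comparison passed for ALPP. Butyrate alone gave -0.44 ± 0.93 (lower in 4 of 6; adjusted p = 0.22; 95% interval -1.13 to 0.24), and doxycycline alone gave -0.47 ± 0.23, lower in 6 of 6 experiments (adjusted p = 0.618). The fit uses the same estimate of spread for all treatments, so the p-value for doxycycline alone also holds the wider spread of the butyrate arrays. By the methods' t-test this change had an unadjusted p under 0.01 and was not called after adjustment. The experiments split: butyrate gave -1.12, -1.43 and -1.15 in experiments 1, 5 and 6 and -0.15, 0.86 and 0.33 in experiments 2, 3 and 4. In experiment 1 the arrays without butyrate were on another slide and in another scan than those with it, so slide and butyrate cannot be told apart there. Arrays of experiments 2 to 4 were scanned together, and so were those of experiments 5 and 6. Within experiments 2 to 4 the butyrate effect was 0.34 (adjusted p = 0.472), and within experiments 5 and 6 it was -1.29 (adjusted p = 0.000243). The negative control signal rose 1.49-, 2.35- and 1.78-fold with butyrate in experiments 2, 3 and 4 and 1.01-fold in experiments 5 and 6, and its part in the ALPP values was not tested. Quantile normalization and scaling on the median both called ALPP lower with butyrate (-0.96 and -1.19; adjusted p = 0.000144 and 1.38e-05).

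DPP4, a surface protease that cleaves dipeptides from peptide hormones, was not called in any comparison. Its probe lies on chr2:162557232-162557291 (NCBI36, minus strand). DPP4 levels ran from -2.24 through -1.78 to -1.43 in Ctl, from -2.62 through -1.62 to -1.17 in NaB, from -1.91 through -1.63 to -1.55 in Doxy and from -2.27 through -1.85 to -0.98 in DoxyNaB. The treatments overlapped throughout. The fitted changes lay between -0.05 and 0.11 in the 4 comparisons (adjusted p from 0.633 to 0.970), and the 95% interval for butyrate alone, -0.25 to 0.42, bounds a rise at 0.42 on the log2 scale. Its butyrate values depended on the scaling. Quantile normalization gave -0.37 for butyrate alone (adjusted p = 0.0112) and called DPP4 lower under doxycycline (-0.45, adjusted p = 0.00325), 0.34 below the median probe. Scaling on the median called it lower in both (-0.66 and -0.61; adjusted p = 0.00173 and 0.00392), where the median of all probes was -0.58 and -0.46.

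VIL1, the actin-bundling core protein of microvilli, showed the largest mean difference with butyrate of the 6 markers that could not be tested. Its probe lies on chr2:219022339-219022398 (NCBI36, plus strand). VIL1 levels ran from -7.71 through -6.76 to -5.84 in Ctl and from -4.48 through -3.96 to -2.69 in NaB. They ran from -7.15 through -6.30 to -5.59 in Doxy and from -4.42 through -4.33 to -3.50 in DoxyNaB. The 12 arrays with butyrate were all above the 12 without, but the spot was well above background on 0 Ctl, 2 NaB, 1 Doxy and 2 DoxyNaB arrays.

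The VIL1 level was higher with butyrate by 2.88 ± 0.58 (6 of 6 experiments, 2.08 to 3.54) without doxycycline and by 2.21 ± 0.40 (6 of 6, 1.64 to 2.73) with it. Doxycycline changed VIL1 by 0.37 ± 0.92 without and -0.31 ± 0.80 with butyrate. In experiments 5 and 6, where the negative controls read alike with and without butyrate, the VIL1 difference was 2.38 ± 0.43 and 2.16 ± 0.38 (n = 2 each). In those experiments VIL1 was well above background only on the DoxyNaB array of experiment 6, and both Ctl values were surrogates. The part of the controls in the VIL1 values was not tested. The size of the difference depended on the background correction: it was 0.24 ± 1.21 for butyrate alone after normexp (higher in 5 of 6), 1.10 ± 0.59 after quantile normalization and 2.09 ± 0.37 after scaling on the median with a floor of 5 units.

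**Figure D4:**
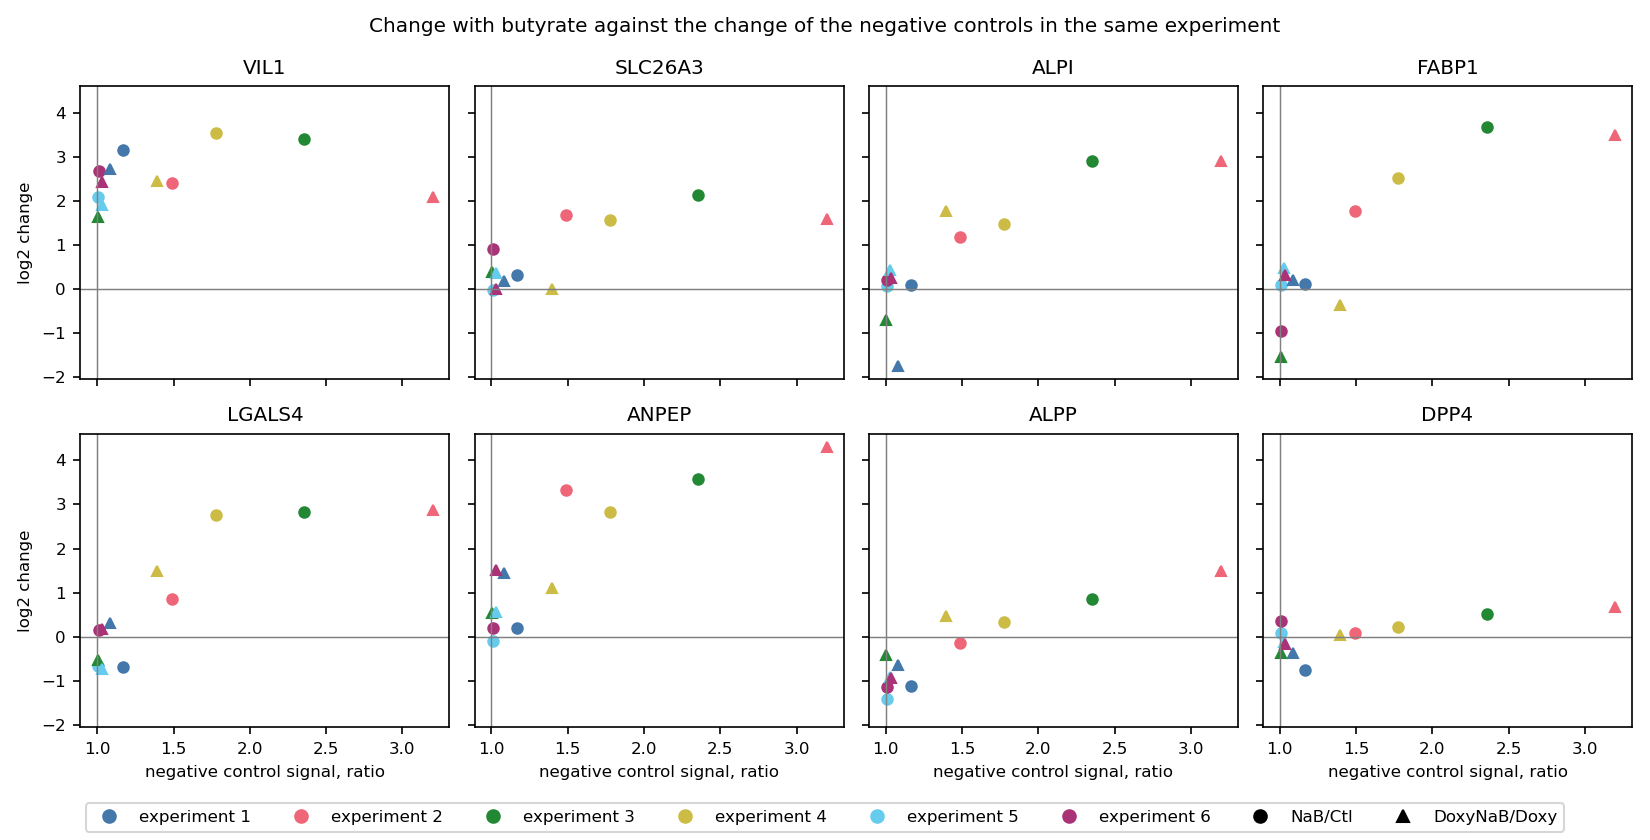
Log2 change with butyrate for the 6 dim markers, ALPP and DPP4 against the ratio of the negative control signal in the same experiment (with butyrate over without), with 12 points a panel from 6 experiments and both comparisons. The VIL1 changes were 1.64 to 3.54, from spots mostly not well above background. The ANPEP, FABP1, LGALS4 and ALPI changes of 2.82 or more lie at ratios of 1.49 or more.

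The other 5 dim markers had their larger changes with butyrate alone in experiments 2 to 4, where the negative controls were brighter too, and the part of the controls in these values was not tested. For 4 of them the probes themselves are shown, since these readings rest on 60 bases each, near the detection limit. The first 3 span 1449, 218 and 471 bases of the genome, more than their length, so each probe sequence crosses at least 1 splice junction.
FABP1: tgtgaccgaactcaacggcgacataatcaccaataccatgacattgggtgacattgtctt
LGALS4: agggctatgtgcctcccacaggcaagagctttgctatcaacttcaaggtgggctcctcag
ANPEP: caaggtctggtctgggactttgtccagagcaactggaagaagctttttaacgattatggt
SLC26A3: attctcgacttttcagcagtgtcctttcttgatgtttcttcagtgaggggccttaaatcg
They lie on chr2:88203713-88205161, chr19:43984606-43984823, chr15:88134770-88135240 and chr7:107201601-107201660 (NCBI36, minus strand), in the order shown.

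ALPI, the intestinal alkaline phosphatase and the classic readout of butyrate in colon cells, ran from -7.45 through -6.50 to -4.93 in Ctl and from -7.25 through -5.47 to -3.37 in NaB. Its probe lies on chr2:233032177-233032236 (NCBI36, plus strand). Butyrate alone gave 0.99 ± 1.11 (higher in 6 of 6), made up of 1.18, 2.90 and 1.47 in experiments 2, 3 and 4 and 0.06 to 0.20 in the other 3. In those other 3 experiments ALPI was not well above background on any Ctl or NaB array. Under doxycycline the change was 0.48 ± 1.67, with Doxy at -7.28 through -5.58 to -4.89 and DoxyNaB at -7.33 through -6.30 to -2.68, the highest being the array with the brightest negative controls.

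FABP1, the fatty acid binding protein of liver and gut, gave the same picture with larger steps. It ran from -6.98 through -6.39 to -5.08 in Ctl and from -7.34 through -5.02 to -2.72 in NaB, and butyrate alone gave 1.20 ± 1.74 (higher in 5 of 6). Under doxycycline it ran from -7.57 through -6.37 to -2.98 in Doxy and from -7.37 through -6.88 to -2.03 in DoxyNaB, a change of 0.43 ± 1.67. The NaB change was 2.65 ± 0.96 in experiments 2 to 4 and -0.43 ± 0.73 in experiments 5 and 6. LGALS4 ran from -6.36 through -5.28 to -4.11 in Ctl and from -6.21 through -4.47 to -2.35 in NaB, with a change of 0.88 ± 1.59 (higher in 4 of 6). In Doxy it ran from -5.39 through -4.82 to -4.40 and in DoxyNaB from -5.44 through -5.13 to -1.98. Its NaB change was 2.15 ± 1.11 in experiments 2 to 4 and -0.25 ± 0.57 in experiments 5 and 6.

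ANPEP, which trims amino acids from peptides at the brush border, ran from -7.90 through -7.25 to -6.52 in Ctl and from -7.23 through -5.32 to -4.27 in NaB, a change of 1.67 ± 1.74. It was not well above background on any Ctl, Doxy or DoxyNaB array, and was on 2 NaB arrays. Under doxycycline ANPEP ran from -7.69 through -7.24 to -5.80 in Doxy and from -6.63 through -5.92 to -3.38 in DoxyNaB, higher in 6 of 6 experiments (1.58 ± 1.40). SLC26A3, the chloride and bicarbonate exchanger of the colon surface, had 10 spots on each of the 24 arrays. On none of them was a share of 0.5 or more of the used spots well above background. The highest share was 30%, on the Doxy array of experiment 3. Its readings ran from -7.41 through -7.10 to -6.13 in Ctl and from -6.49 through -5.71 to -5.27 in NaB. They ran from -6.99 through -6.56 to -5.99 in Doxy and from -6.82 through -6.18 to -4.88 in DoxyNaB.

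No fold is given for the 6 dim markers, and their values depended on the background correction and scaling. For butyrate alone, normexp gave 0.07 for ALPI, 0.24 for FABP1, 0.19 for LGALS4, 0.15 for ANPEP and -0.020 for SLC26A3, and quantile normalization gave 0.05, -0.15, -0.32, 0.25 and -0.064. The SD over the 6 experiments was 1.15 to 1.44 after normexp and 0.27 to 1.15 after quantile normalization, larger than the change in each case. With the filter on dim probes removed, the fit over all 34127 probes called VIL1 and SLC26A3 higher with butyrate alone, beside 9170 probes called higher. Under doxycycline it called VIL1 higher, beside 7831 probes, and it did not call the other 4 dim markers. These calls rest on values near background, with VIL1 well above it on 5 arrays and SLC26A3 on 0, so no p-value is given.

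The gene whose level followed a tested marker most closely was sought over the 24 arrays, with each experiment's mean removed. Only tested probes whose name was the same in the file and after updating were searched. It was DKK1 for CA2 (r = 0.961), PCID2 for EZR (r = 0.961), LOC100130387 for ALPP (r = 0.948) and PCM1 for DPP4 (r = 0.878). These are descriptions of likeness over 24 arrays of 4 treatments, which share array-wide shifts. At r above 0.9 there were 76 of the probes searched for EZR, 22 for ALPP, 20 for CA2 and 0 for DPP4.

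Around the markers, 93 genes in 4 lists were read: 23 of brush border structure, 20 brush border enzymes, 33 of colonocyte transport and surface, and 17 of lipid absorption and binding. Of these, 40 were tested. With butyrate alone 16 rose and 14 fell, and the median change was -0.09, beside 40% of all probes higher, 28.2% lower and a median of 0.17. With butyrate under doxycycline 15 rose and 14 fell, with a median of -0.14, beside 37.3%, 29.7% and 0.10. Doxycycline alone, doxycycline added to butyrate and the difference between both butyrate effects each gave 0 calls among the 40 by limma, with 8, 11 and 6 genes at an unadjusted p under 0.05; the methods' t-test gave 4, 5 and 3 at an unadjusted p under 0.01 and 0 after adjustment in each.

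Brush border structure had 18 tested genes, of which 6 rose and 6 fell with butyrate alone (median -0.10). The largest rises were VILL, a villin-like actin binder (1.88 ± 0.47, adjusted p = 4.36e-07), USH1C, the harmonin scaffold of the links between microvilli (1.73 ± 0.25, adjusted p = 1.69e-10), and NHERF1, the scaffold that EZR binds (1.40 ± 0.03, adjusted p = 5.76e-12). The largest falls were SLK, a kinase that phosphorylates ezrin (-1.02 ± 0.27, adjusted p = 5.68e-09), EPS8L2, an actin-capping relative of EPS8 (-0.91 ± 0.40, adjusted p = 5.94e-06), and CALML4, a myosin light chain of the link complex (-0.80 ± 0.22, adjusted p = 1.36e-07). The other 2 proteins of ezrin's family, named as its relatives and outside the naming rule, were called lower with butyrate alone. RDX (radixin) fell by 0.64 ± 0.33 and MSN (moesin) by 0.64 ± 0.13 on the log2 scale (limma adjusted p = 0.000152 and 1.02e-06). EZR itself gave -0.13 and was not called there (adjusted p = 0.0464). MYO1A, MYO7B, CDHR2, CDHR5 and ANKS4B, further parts of the brush border, were not tested.

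Of the 20 brush border enzymes 6 were tested, of which 2 rose and 2 fell with butyrate alone (median -0.08). The placental-type alkaline phosphatase ALPG rose by 0.89 ± 0.13 (adjusted p = 4.85e-10), in 6 of 6 experiments, where its neighbour ALPP gave -0.44. ACE, the angiotensin-converting peptidase, rose by 0.69 ± 0.31 (adjusted p = 0.000507). NT5E, the surface 5′ nucleotidase, fell by 1.51 ± 0.21 (adjusted p = 7.29e-11), and GGT1, a gamma-glutamyl transferase, fell by 0.33 ± 0.34 (adjusted p = 0.00849). Sucrase-isomaltase (SI), lactase (LCT) and 12 further enzymes were not tested.

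Of 33 transport and surface genes 7 were tested, of which 3 rose and 3 fell with butyrate alone (median -0.18). AQP3, a water and glycerol channel, rose by 2.95 ± 0.20, or 7.73-fold (adjusted p = 3.56e-14), the largest rise in the lists. PLAC8 rose by 1.21 ± 1.33 and the sulfate transporter SLC26A2 by 1.14 ± 0.35 (limma adjusted p = 2.51e-07 for SLC26A2). PLAC8 was well above background on 4 Ctl and 6 NaB arrays. It passed the filter only through the butyrate groups, where it was high, so no p-value is given for it. The falls were in SCNN1A, a subunit of the epithelial sodium channel (-2.35 ± 1.65), the adhesion protein CEACAM1 (-1.62 ± 1.69) and the anion exchanger SLC4A2 (-0.72 ± 0.20, limma adjusted p = 1.81e-07). SCNN1A was well above background on 6 Ctl and 3 NaB arrays, and CEACAM1 on 4 and 1. Both passed the filter only through groups without butyrate, where they were high, so no p-value is given for them.

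Lipid genes gave the only list median above that of all probes, 0.90 over 9 tested, with 5 rises and 3 falls. NPC1L1, the cholesterol uptake protein, rose by 2.00 ± 0.31, the bile acid binder FABP6 by 1.99 ± 0.26 and the apolipoprotein APOA1 by 1.63 ± 0.45 (limma adjusted p = 9.05e-10 for FABP6 and 1.83e-06 for APOA1). NPC1L1 was well above background on 3 Ctl and 6 NaB arrays. It passed the filter only through the butyrate groups, where it was high, so no p-value is given for it. PLIN2, the coat protein of lipid droplets, fell by 2.14 ± 0.17, the epidermal-type FABP5 by 0.68 ± 0.09 and the lipoprotein receptor SCARB1 by 0.66 ± 0.14 (adjusted p = 3.79e-12, 6.83e-08 and 7.46e-08). FABP1 itself could not be tested, while its relatives FABP5 and FABP6 went in opposite directions.

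**Figure D5:**
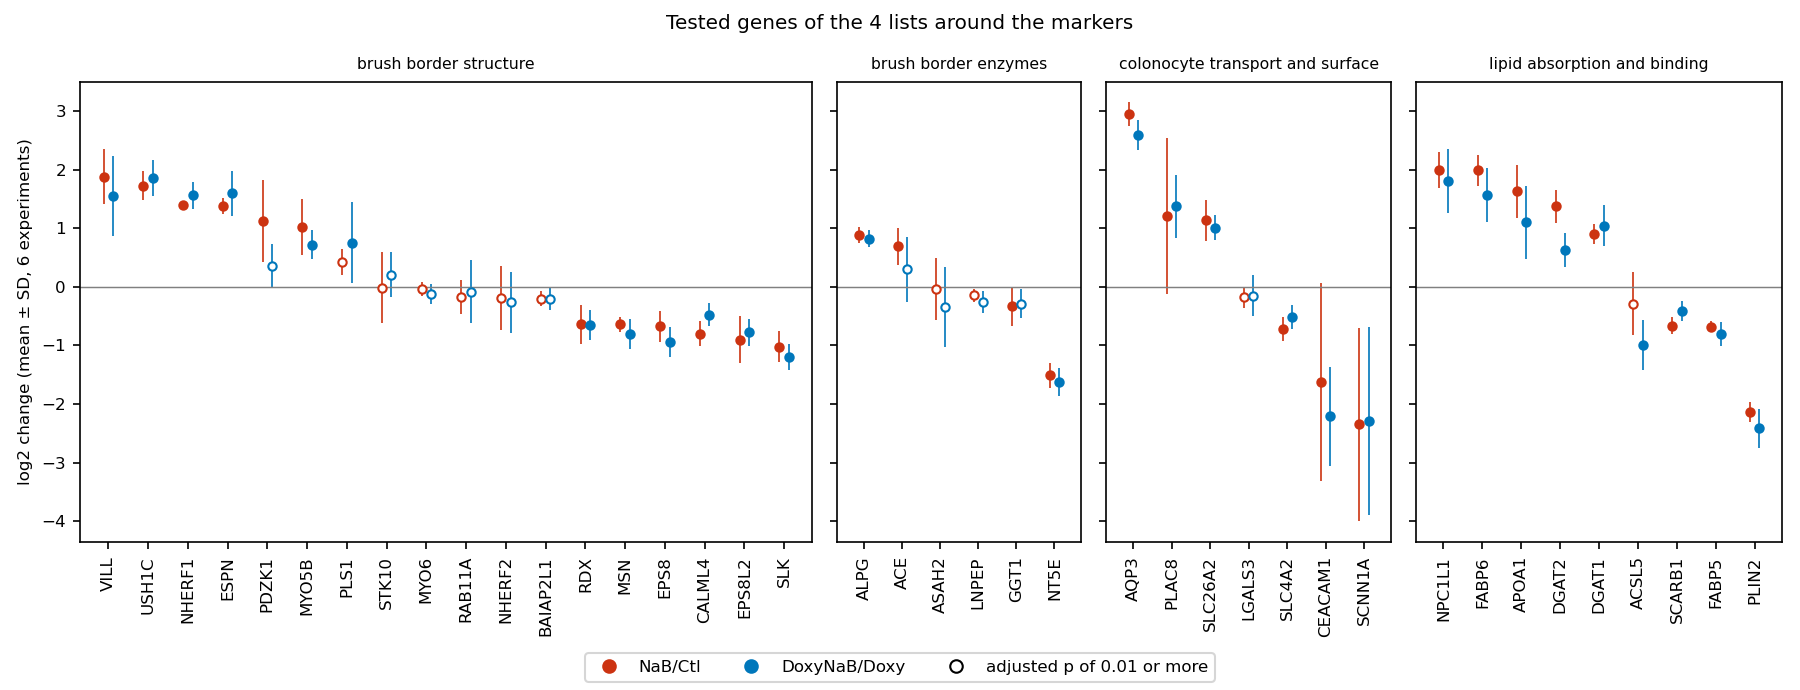
Log2 change with butyrate alone (red) and under doxycycline (blue) for the 40 tested genes of the 4 lists, ordered by the first; points are means with SD bars over up to 6 experiments, filled where the adjusted p was under 0.01. Each list holds both rises and falls, and the 2 colours lie near each other for most genes.

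Markers of cell identity were read to check the label. All 5 epithelial markers were tested, and in Ctl cells CDH1, KRT8, KRT18 and KRT19 were well above background on 6 of 6 arrays and EPCAM on 5. CDH1 (E-cadherin), KRT8 and KRT19 rose with butyrate alone by 0.99, 0.63 and 0.97, and EPCAM fell by 1.45 on the log2 scale (adjusted p = 9.15e-08, 3.43e-06, 1.38e-07 and 3.62e-05), with 1 experiment of EPCAM lacking a value. Markers of other cell types moved with butyrate alone as well. CHGA (chromogranin A), an enteroendocrine marker, was well above background on 0 of 6 Ctl and 6 of 6 NaB arrays, at least 7.65-fold higher in NaB. It passed the filter only through the butyrate groups, where it was high, so no p-value is given. The goblet cell genes MUC2 and FCGBP rose by 0.91 and 0.96 (adjusted p = 0.0014 and 3.02e-09), 2 of 3 tested of 8 listed, and SPDEF gave 0.71 (adjusted p = 0.0263). Of the 2 tested intestinal stem cell genes, EPHB2 rose by 2.01 and PROM1 fell by 0.90 on the log2 scale (adjusted p = 2.38e-13 and 0.003).

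Summed over the 7 enteroendocrine genes, the level was 0.058 to 0.24 times the 75th percentile in Ctl and 0.25 to 1.31 in NaB. Over the 8 goblet cell genes it was 0.39 to 0.76 in Ctl and 0.70 to 1.85 in NaB. The placental gene CSH1, the 1 tested of 6 trophoblast genes, rose by 1.43 (adjusted p = 3.88e-07). Of the 2 tested endothelial genes VWF rose by 2.73 and CDH5 gave 0.45 (limma adjusted p = 0.18 for CDH5). VWF was well above background on 3 Ctl and 6 NaB arrays. It passed the filter only through the butyrate groups, where it was high, so no p-value is given for it. The part of the brighter negative controls in these values was not tested.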

How the data were processed

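Total RNA from the 24 samples was labelled and hybridised to 1-colour Agilent 4x44K arrays, and the deposited scanner files hold spot intensity values made by the authors with Agilent Feature Extraction 9.5.3.1 (probe positions on NCBI36). The members and the gene lists were chosen with earlier results of these data known. Levels were log2 of the processed intensity minus log2 of the array's 75th percentile over spots that are neither controls nor outliers. Testing required that Feature Extraction marked a probe well above background in all 6 experiments of some treatment (18984 probes, 15166 genes). An array whose only spot was an outlier has no value there. limma 3.58.1 (R 4.3.3) fitted all 24 arrays with treatment and experiment as terms, and a call was an adjusted p under 0.01. A gene with several tested probes was represented by the one with the highest mean level.

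The experiment number pairs the samples: the study's methods name a paired test, and the 4 arrays of each of experiments 2 to 6 shared 1 slide; those of experiment 1 lay on 2, 1 without and 1 with butyrate, each scanned apart. Levels centred on the treatment correlated between arrays of 1 experiment with r of 0.22 to 0.85, except -0.22 for NaB against DoxyNaB of experiment 3. The labels call the 6 runs biological replicates of 1 clone, so the p-values measure the spread between runs. The number of arrays limits the precision. The script was tested on simulated data. No probe of the files has an annotation of its build here, so exon or UTR position is not given. Named genes were the 10 markers, for each tested marker the gene of most similar pattern, and, of each list, the 3 largest called rises and falls with butyrate alone and any gene past the test of the difference. LYZ and CGB3 had no matched probe. Gene names were updated through RefSeq tables (24955 probes by accession, 1099 by symbol, 505 by older symbol), and 7568 kept the file's name.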

Additional observations from a re-analysis of the deposited data

How the results depend on the processing

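Of the 10 markers 6 had only dim signal, so their changes rest on values near background; each marker had 1 probe, so averaging several probes of a marker could not be run. The CA2 call for NaB/Ctl was lost in scaling on the median, the EZR call for DoxyNaB/Doxy in experiments 5 and 6 alone, and both where a change over 2-fold was also required. Experiments 5 and 6 alone called 1 other marker lower for NaB/Ctl (ALPP) and 1 for DoxyNaB/Doxy (ALPP), beside 9726 and 9797 of 18984 probes called. The causes below were not tested.

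After normexp, 8302 probes were called for NaB/Ctl, 21 for Doxy/Ctl, 109 for DoxyNaB/NaB and 43 for the difference between both butyrate effects, with 0 markers for DoxyNaB/NaB. DPP4 then turned to -0.038 for NaB/Ctl, 0.18 for DoxyNaB/Doxy, 0.22 for DoxyNaB/NaB and -0.22 for the difference, ALPP to 0.27 for DoxyNaB/Doxy and 0.25 for DoxyNaB/NaB, CA2 to -0.014 for DoxyNaB/Doxy and EZR to 0.057 for Doxy/Ctl. Quantile normalization called 2 markers for NaB/Ctl, 3 for DoxyNaB/Doxy, 1 for DoxyNaB/NaB and 1 for the difference. Beside them, 11662, 11586, 471 and 202 of 18984 probes were called for these comparisons in turn. It called 2 list genes for DoxyNaB/NaB, with DPP4 at -0.37 for NaB/Ctl and EZR at 0.0066 for Doxy/Ctl. Scaling on the median called 3 markers for NaB/Ctl, 3 for DoxyNaB/Doxy and 0 for DoxyNaB/NaB. Beside them, 11182 of 18984 probes were called for NaB/Ctl and 10218 for DoxyNaB/Doxy, and 5, 46 and 9 for Doxy/Ctl, DoxyNaB/NaB and the difference. This scaling turned DPP4 to -0.66 (NaB/Ctl), 0.079 (DoxyNaB/NaB) and -0.056 (difference) and CA2 to -0.29 (NaB/Ctl) and -0.47 (DoxyNaB/Doxy). The share of calls that were higher was 58.7% for NaB/Ctl on the main scale and 51.2%, 46.9% and 21.7% after normexp, quantile normalization and scaling on the median; for DoxyNaB/Doxy it was 55.7% and then 55.6%, 46.0% and 25.9%, and for the difference 82.6% positive and then 86.0%, 74.8% and 11.1%.

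Without the filter 3 markers were called for NaB/Ctl, 2 for DoxyNaB/Doxy and 1 for DoxyNaB/NaB. Beside them, 14198 of 34127 probes were called for NaB/Ctl and 13167 for DoxyNaB/Doxy, and 55, 286 and 144 for Doxy/Ctl, DoxyNaB/NaB and the difference. With probes above background on all arrays, 1 list gene was called for DoxyNaB/NaB and 1 for the difference. Without the replicate block on the paired experiments, 36 probes were called for Doxy/Ctl, 179 for DoxyNaB/NaB and 85 for the difference, and 1 marker for DoxyNaB/NaB (CA2, with EZR lost); the block changed no other marker call. With the slide as block DPP4 read 0.067 for DoxyNaB/Doxy and 1 list gene was called for DoxyNaB/NaB. With only the arrays compared, 30 probes were called for Doxy/Ctl, and 131 probes and 0 markers for DoxyNaB/NaB. The methods' t-test with adjustment called 10 probes for Doxy/Ctl, 24 probes and 0 markers for DoxyNaB/NaB and 0 probes for the difference; unadjusted it called 2 markers for NaB/Ctl, 1 for Doxy/Ctl and 2 for the difference, an alternative added after the data were seen.

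Leaving out 1 experiment at a time gave 36 to 81 probes for Doxy/Ctl, 257 to 401 for DoxyNaB/NaB and 117 to 196 for the difference, 1 marker for DoxyNaB/NaB each time, and 0 to 1 list genes for DoxyNaB/NaB and for the difference. DPP4 then ran from -0.0011 to 0.25 for NaB/Ctl, -0.19 to 0.015 for DoxyNaB/Doxy, -0.10 to 0.13 for DoxyNaB/NaB and -0.016 to 0.28 for the difference, ALPP from -0.42 to 0.13 for DoxyNaB/NaB and EZR from -0.013 to 0.016 for Doxy/Ctl. Without the NaB array of experiment 3 and the DoxyNaB array of experiment 2, 145 probes were called for Doxy/Ctl and 1 list gene for the difference, and DPP4 read -0.019 for NaB/Ctl. Experiments 2 to 4 alone gave 3, 39 and 5 probes for Doxy/Ctl, DoxyNaB/NaB and the difference, 0 markers for DoxyNaB/NaB, ALPP at 0.34 for NaB/Ctl and 0.51 for DoxyNaB/Doxy, DPP4 at 0.12 for DoxyNaB/Doxy and -0.072 for Doxy/Ctl, and EZR at 0.030 for Doxy/Ctl. Experiments 5 and 6 alone gave 2 markers for NaB/Ctl and 0 for DoxyNaB/NaB, 0, 3 and 0 probes for Doxy/Ctl, DoxyNaB/NaB and the difference, and DPP4 at 0.10 for DoxyNaB/NaB.

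At an adjusted p under 0.05, 2 markers were called for NaB/Ctl and 1 for the difference, 223, 884 and 421 probes for Doxy/Ctl, DoxyNaB/NaB and the difference, and 5 and 1 list genes for the last 2. Requiring a change over 2-fold as well left 0 markers for NaB/Ctl, DoxyNaB/Doxy and DoxyNaB/NaB, 6015, 5804, 18, 72 and 75 probes for the 5 comparisons in turn, and 18 and 16 list genes for NaB/Ctl and DoxyNaB/Doxy.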
